A study of Homo sapiens with 6 samples.

Results

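The lactate dehydrogenases and the carriers of lactate and pyruvate were followed in the human liver cancer line SNU-368 after a short hairpin RNA against TFAM. The genes were taken by name: LDHA, LDHB and LDHD, the plasma membrane carriers SLC16A1, SLC16A3 and SLC16A7, their partner BSG, and the mitochondrial pyruvate carrier subunits MPC1 and MPC2. All 9 were found among the 60612 gene rows of the deposited table, and all 9 were among the 14708 rows tested. The libraries fall into 2 groups, 3 labelled shCtrl and 3 labelled shTFAM, and the labels name the source as hepatocellular carcinoma cell lines. The series text speaks of 6 cell lines, and the labels do not say whether the libraries of a group came from separate cultures or infections, so each p-value reflects only how far these libraries scatter, and that scatter may be technical. The sources used here do not give the hairpin sequences, the vector, or whether the cells were clones or pools.

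TFAM packages mitochondrial DNA and is needed to transcribe it, and mtDNA encodes subunits of the respiratory chain that oxidizes NADH. Lactate dehydrogenase converts pyruvate and NADH into lactate and NAD+ and runs in either direction. The active enzyme is a tetramer of A chains from LDHA and B chains from LDHB. Tetramers rich in A chains are typical of skeletal muscle and liver, and those rich in B chains of heart. Lactate crosses the plasma membrane through proton-coupled monocarboxylate transporters, and pyruvate enters the mitochondrial matrix through the MPC1 and MPC2 heterodimer. Many cancer cells make lactate from glucose in the presence of oxygen.

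Levels are given as CPM, counts scaled to library size after TMM adjustment, for comparisons between groups, and as the deposited FPKM, which are per length, for comparisons between genes. Libraries held 43286024 to 61058282 counts, so that 3 counts correspond to 0.0519 to 0.0677 CPM. TFAM, the targeted gene, was at 82.2, 76.2 and 89.6 CPM in shCtrl and 63.7, 65.0 and 56.7 CPM in shTFAM, a log2 fold change of -0.42 (SE 0.107, edgeR adjusted p = 0.0377). The groups did not overlap for TFAM, but the call was lost without any 1 of the 6 libraries (edgeR adjusted p 0.0676 to 0.0948). Counts of mtDNA-encoded rows made up 10.1 to 14.2% of the shCtrl libraries and 7.91 to 10.7% of the shTFAM libraries. On the second principal component (16.6% of the variance) shCtrl 3 lay far from shCtrl 1 and shCtrl 2, and results without it are given for the ratios and for some of the genes. Of 8 hepatocyte markers none passed the filter, and ALB, AFP, APOA1, APOB and TTR had a count of 0 in all 6 libraries. Of 4 epithelial markers, KRT8 averaged 79.5 FPKM in shCtrl and 115 in shTFAM (log2 fold change 0.61, edgeR adjusted p = 0.0160), KRT18 174 and 157 FPKM (not called), and EPCAM and CDH1 were below the filter at 0.109 and 0.320 FPKM in shCtrl. The KRT8 call was lost without shCtrl 1 or without shCtrl 2. Of 3 biliary markers, KRT7 averaged 113 and 177 FPKM and was not called (edgeR adjusted p = 0.0960), KRT19 was not called, and SOX9 was below the filter. The labelled hepatic origin was therefore not matched by hepatocyte transcripts. Markers of other cell types were also read: among leukocyte markers PTPRC and CD3E had 0 counts in every library while CD68 rose by 1.43 log2 units, so that the summed level of the 4 markers went from 4.40 to 6.49 FPKM in shCtrl to 12.6 to 17.3 FPKM in shTFAM. Of 5 fibroblast markers, PDGFRB (log2 fold change 1.69) and DCN (2.95) rose, COL1A1 and LUM were not called, and COL1A2 had 0 counts in every library. With a filter of 5 FPKM only 1 of the 5 was tested and 0 were called. The summed level was 24.5 to 37.4 FPKM in shCtrl and 36.6 to 40.4 FPKM in shTFAM. COL1A1 was the highest of these markers, at up to 34.9 FPKM in a library. Endothelial markers summed to at most 0.643 FPKM in any library. In bulk RNA fewer cells of a type and less RNA per cell cannot be told apart, and the part of these markers and of the mtDNA share in the results below was not tested.

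Of the 9 lactate and pyruvate genes, 3 rose in shTFAM (LDHA, SLC16A3 and BSG), 2 fell (LDHB and MPC1), and 4 did not pass the edgeR test at an adjusted p of 0.05. Over all tested rows 17.9% were called, 11.3% higher and 6.59% lower. That split depended on scaling: 1661 rows were higher and 969 lower with TMM, and 1198 higher and 1771 lower with scaling to counts outside mtDNA. Under the latter each of the 9 genes kept its direction, but LDHD (log2 fold change 0.0076) and SLC16A1 (0.030) barely differed between groups. BSG then lost its call and MPC2 gained one, so that 2 of the 9 were called higher and 3 lower. The shTFAM values lay above every shCtrl value for 3 genes and below for 3 (LDHB, MPC1 and MPC2); over all tested rows the groups did not overlap for 42.2%, 22.1% above and 20.1% below. The median log2 fold change of the 9 genes was 0.16, beside -0.02 over all tested rows. Changes therefore went in both directions within the dehydrogenases and between the plasma membrane and mitochondrial carriers, as the plot of CPM by library shows.

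**Figure D1:**
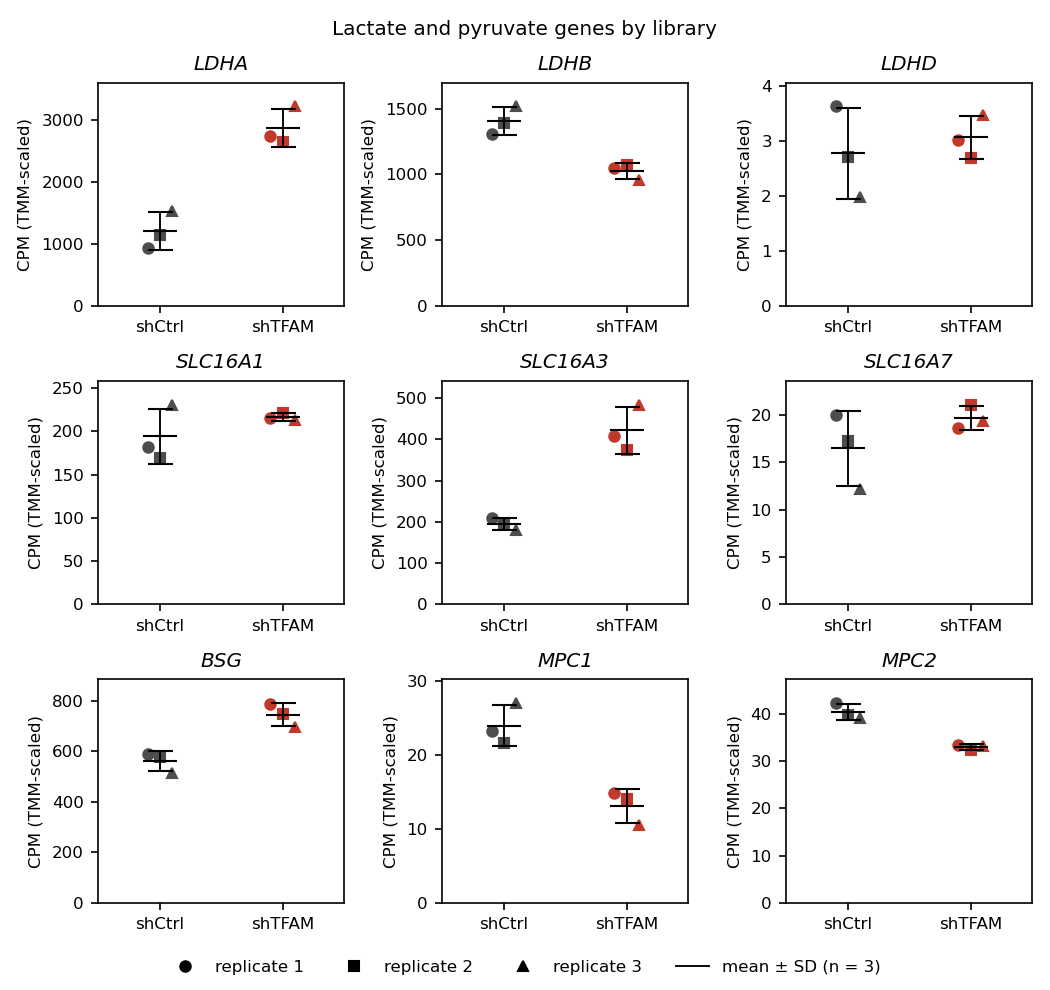
CPM (TMM-scaled, linear axes from 0) of the 9 genes in the 3 shCtrl (grey) and 3 shTFAM (red) libraries; marker shape gives the replicate and bars the mean ± SD (n = 3). All shTFAM points lie above all shCtrl points for LDHA, SLC16A3 and BSG and below them for LDHB, MPC1 and MPC2, while the groups overlap for LDHD, SLC16A1 and SLC16A7.

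LDHA (ENSG00000134333, chr11:18394560-18408425, plus strand, hg38) encodes the A chain of lactate dehydrogenase. It was at 930.4, 1153 and 1535 CPM in the shCtrl libraries and at 2755, 2649 and 3227 CPM in the shTFAM libraries. The lowest shTFAM library was well above the highest control, shCtrl 3. The mean went from 1206 ± 306 to 2877 ± 308 CPM (SD, n = 3 each), 2.38-fold, with a log2 fold change of 1.25 (SE 0.193, edgeR adjusted p = 0.00811). Without shCtrl 3, the control library with the most LDHA, the log2 fold change was 1.46. LDHA passed the test under all 18 alternatives run, with log2 fold changes from 1.08 to 1.46.

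LDHB (ENSG00000111716, chr12:21635342-21657971, minus strand) encodes the B chain. It moved the other way, from 1306, 1390.4 and 1517 CPM in shCtrl to 1052, 1075 and 961 CPM in shTFAM. Every shTFAM library was below every control, and the fall was smaller than the rise of LDHA. The means were 1405 ± 106 and 1029 ± 60.5 CPM (SD, n = 3), a log2 fold change of -0.45 (SE 0.102, edgeR adjusted p = 0.0268). The LDHB call was lost without shCtrl 1 (edgeR adjusted p = 0.0528), shCtrl 2 (0.0801), shTFAM 1 (0.0668), shTFAM 2 (0.0605) or shTFAM 3 (0.0714).

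The LDHA to LDHB count ratio, which does not depend on library scaling, was 0.712, 0.830 and 1.01 in the shCtrl libraries and 2.62, 2.46 and 3.36 in the shTFAM libraries. Controls thus had about equal or fewer LDHA than LDHB counts, and each shTFAM library had more LDHA. The mean ratio was 0.851 ± 0.151 in shCtrl and 2.81 ± 0.478 in shTFAM (SD, n = 3), 3.31-fold apart on the log2 mean, a log2 difference of 1.73 (two-sided exact permutation p = 0.1, the smallest that 3 against 3 libraries can give, and 0.1 after adjustment over the 3 ratios tested). With each library left out in turn the log2 difference ranged from 1.59 to 1.86, the latter without shCtrl 3.

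Per length, LDHB was the most abundant of the 9 genes in shCtrl and LDHA in shTFAM. LDHA was at 134, 163 and 221 FPKM in shCtrl and 382, 361 and 422 FPKM in shTFAM, while LDHB was at 381, 399 and 443 FPKM and then 296, 297 and 255 FPKM. The 2 genes therefore changed places, with no overlap between them within either group. LDHA made up 26.0, 29.1 and 33.3% of the summed LDHA and LDHB FPKM in shCtrl and 56.4, 54.9 and 62.4% in shTFAM. Their summed FPKM moved less than the share, from 514, 562 and 664 FPKM to 678, 658 and 677 FPKM, with shCtrl 3 inside the shTFAM range (1.16-fold, two-sided exact permutation p = 0.2). On the TMM-scaled CPM, which are not per length and so weight the genes differently, the sum was 2236, 2544 and 3052 in shCtrl and 3807, 3724 and 4187 in shTFAM, without overlap (exact permutation p = 0.1, the lower limit). LDHA rose from rank 144 to rank 49 by mean FPKM among tested rows, and LDHB went from rank 51 to rank 73.

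**Figure D2:**
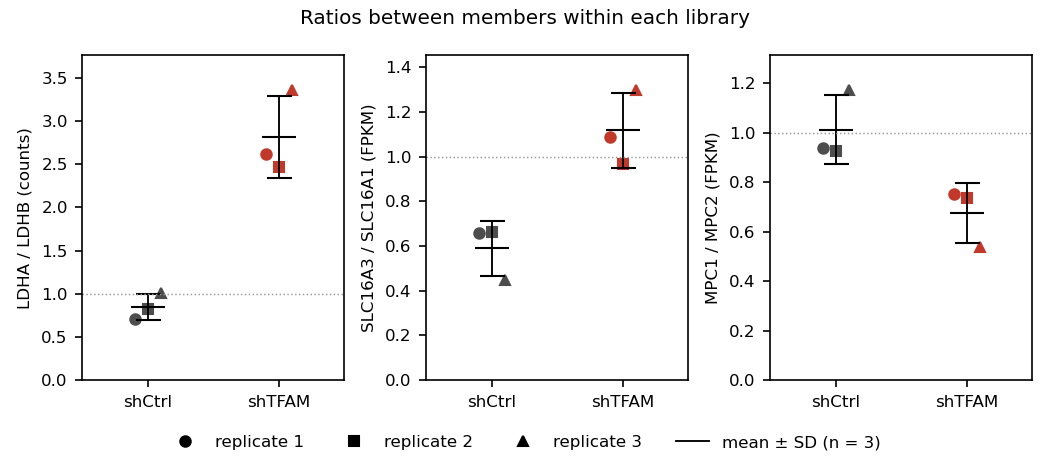
Ratios within each library on linear axes from 0: LDHA to LDHB (counts), SLC16A3 to SLC16A1 and MPC1 to MPC2 (FPKM), with bars for the mean ± SD (n = 3) and a dotted line at equality. The LDHA to LDHB ratio is at most 1.01 in shCtrl and at least 2.46 in shTFAM, and the groups do not overlap in any of the 3 panels.

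LDHD (ENSG00000166816, chr16:75111860-75116780, minus strand) encodes a mitochondrial dehydrogenase of D-lactate that is unrelated in fold to the A and B chains. Its level was low, at 3.63, 2.71 and 1.99 CPM in shCtrl and 3.03, 2.70 and 3.48 CPM in shTFAM. The groups overlapped, and shCtrl 3 was the lowest. LDHD had a log2 fold change of 0.15 (SE 0.277, edgeR adjusted p = 0.747), and it turned to -0.054 without shCtrl 3. LDHD averaged 1.01 FPKM in shCtrl and 1.05 FPKM in shTFAM, about 0.180 and 0.156% of the summed FPKM of the 3 dehydrogenases.

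Rows of LDHA pseudogenes, which can share reads with LDHA, held, in all, 0.458% as many counts as LDHA, and those of LDHB pseudogenes 0.170% as many as LDHB. Adding them to their parents left the log2 difference of the LDHA to LDHB ratio at 1.73. Of 4 other lactate dehydrogenase genes only UEVLD passed the filter, and it was not called (log2 fold change -0.08, SE 0.163, edgeR adjusted p = 0.761). LDHC, the testis form, had a count of 0 in all 6 libraries although its row starts 3892 bases beyond the end of LDHA. LDHAL6B was at a mean of 0.0745 FPKM in shCtrl and 0.135 FPKM in shTFAM, and LDHA and LDHB were the abundant genes of this family.

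Sequences before the start of LDHA, LDHB and SLC16A3 are shown because LDHA and SLC16A3 rose while LDHB fell. They were taken from the RefSeq promoter table (GRCh38.p14), which matched 7 of the 9 genes; the 250 bases before the RefSeq start were searched, and the part outside the deposited gene row is printed, 5′ to 3′ on the gene's strand. Capitals mark ACGTG, the core of the hypoxia response element bound by HIF factors, on either strand; the E-box CACGTG, bound by MYC and related factors, contains this core on both strands.
LDHA, chr11:18394313-18394559, plus strand: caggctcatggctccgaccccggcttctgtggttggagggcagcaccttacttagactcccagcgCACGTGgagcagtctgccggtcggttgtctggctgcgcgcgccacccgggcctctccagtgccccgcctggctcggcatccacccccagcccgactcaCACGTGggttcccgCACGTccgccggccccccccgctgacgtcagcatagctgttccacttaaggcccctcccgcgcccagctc
LDHB, chr12:21657972-21658092, minus strand: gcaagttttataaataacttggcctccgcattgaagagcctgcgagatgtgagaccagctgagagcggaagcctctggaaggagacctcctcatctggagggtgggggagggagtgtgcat
SLC16A3, chr17:82228185-82228396, plus strand: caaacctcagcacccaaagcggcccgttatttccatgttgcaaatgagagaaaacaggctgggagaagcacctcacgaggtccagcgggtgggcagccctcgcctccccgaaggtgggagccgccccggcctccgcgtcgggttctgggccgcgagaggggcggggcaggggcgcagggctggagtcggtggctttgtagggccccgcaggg
LDHA held the core at 3 separate places, starting 185, 87 and 73 bases before the RefSeq start, and the first 2 were E-boxes. The core was at 0 places in the windows of the other 6 matched genes, SLC16A3 included. The windows of SLC16A7 and MPC2 start from RefSeq positions 93341 and 1076 bases inside the deposited rows, so they do not lie before those rows. Over 27305 promoter windows of the same length 18.7% held at least 1 such place and 0.374% held 3 or more, and over the 9428 windows of tested genes the shares were 24.1 and 0.573%. GGGCGG, the GC box, was found on either strand in the searched windows of LDHB, SLC16A3, MPC1 and MPC2. The LDHB match lay in the part of its window inside the deposited row, which is not printed. This motif was in 42.3% of all windows and 68.8% of those of tested genes. These matches describe letters in a short window and are not measured binding sites.

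Among the carriers, SLC16A3 (ENSG00000141526, chr17:82228397-82261129, plus strand) encodes MCT4, a low-affinity transporter that exports lactate from glycolytic cells. It was at 209, 196 and 181 CPM in shCtrl and 409, 373 and 483 CPM in shTFAM. All shTFAM libraries were far above the narrow control range. The mean went from 195 ± 14.0 to 422 ± 56.3 CPM (SD, n = 3), a log2 fold change of 1.11 (SE 0.122, edgeR adjusted p = 0.00317). SLC16A3 passed under all 18 alternatives, with log2 fold changes from 0.95 to 1.19. CSNK1D, a kinase gene on the opposite strand that overlaps SLC16A3 over 22107 bases, held 45.3% as many counts as SLC16A3. The log2 fold change of CSNK1D was 0.32 (edgeR adjusted p = 0.0589). The libraries mark the strand, but the sources used here do not say whether the counting used it.

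SLC16A1 (ENSG00000155380, chr1:112911847-112956196, minus strand) encodes MCT1, the widely expressed carrier that imports or exports lactate along its gradient. It was at 183, 169.7 and 231 CPM in shCtrl and 215, 222 and 214 CPM in shTFAM. The shTFAM libraries lay within the control range, whose top was shCtrl 3. SLC16A1 had a log2 fold change of 0.16 (SE 0.127, edgeR adjusted p = 0.415), and of 0.29 without shCtrl 3 (0.0623). The antisense row SLC16A1-AS1, on the opposite strand and 218 bases away, held 8.25% as many counts and fell from 23.3 to 11.2 CPM (log2 fold change -1.06, edgeR adjusted p = 0.0113).

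SLC16A7 (ENSG00000118596, chr12:59596029-59789855, plus strand) encodes MCT2, a high-affinity carrier. It was at 20.0, 17.2 and 12.2 CPM in shCtrl and 18.6, 21.1 and 19.3 CPM in shTFAM. The groups overlapped, and shCtrl 3 was again the lowest. SLC16A7 had a log2 fold change of 0.26 (SE 0.195, edgeR adjusted p = 0.391) and 0.07 without shCtrl 3.

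BSG (ENSG00000172270, chr19:571277-583493, plus strand) encodes basigin, the glycoprotein that brings MCT1 and MCT4 to the plasma membrane. It was at 588, 576 and 515 CPM in shCtrl and 787, 748 and 697 CPM in shTFAM. The groups did not overlap, and replicate-to-replicate spread was small in both. BSG thus had a log2 fold change of 0.41 (SE 0.0984, edgeR adjusted p = 0.0313). The BSG call was lost without shCtrl 1 (edgeR adjusted p = 0.0784), shCtrl 2 (0.0867), shCtrl 3 (0.0571), shTFAM 1 (0.0981) or shTFAM 2 (0.0831), with no filter (0.0561), and with scaling to library totals (0.0627) or to counts outside mtDNA (0.109). It was also lost with limma on log2(FPKM + 1), at an adjusted p of 0.0736.

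Per length the balance of the carriers moved toward SLC16A3. In the deposited FPKM the SLC16A3 to SLC16A1 ratio was 0.656, 0.662 and 0.449 in shCtrl and 1.09, 0.966 and 1.30 in shTFAM. SLC16A1 was thus the larger of the 2 in every control, and they were near equal or reversed in shTFAM. The log2 difference was 0.93, 1.91-fold (exact two-sided permutation p = 0.1, again the lower limit of the design, and 0.1 adjusted over the 3 ratios). Without shCtrl 3, the control with the lowest ratio, the log2 difference was 0.75. SLC16A3 made up 38.7, 38.9 and 30.6% of the summed FPKM of the 3 carriers in shCtrl and 51.3, 48.3 and 55.7% in shTFAM, and the sum itself went from 52.2, 47.9 and 57.2 FPKM to 74.3, 70.9 and 76.4 FPKM. BSG, at 128 ± 8.64 FPKM in shCtrl and 161 ± 14.4 FPKM in shTFAM (SD, n = 3), exceeded that sum in every library.

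**Figure D3:**
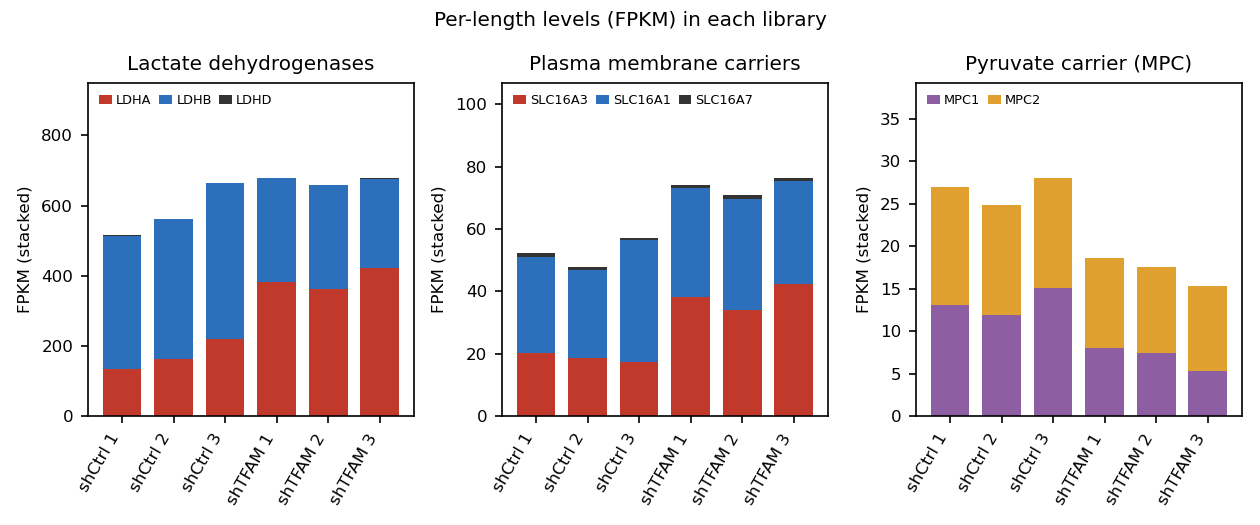
Stacked FPKM (per length, linear axes from 0) per library for the lactate dehydrogenases, the plasma membrane carriers and the mitochondrial pyruvate carrier. The LDHA share of the bar grows from 26.0 to 33.3% in shCtrl to 54.9 to 62.4% in shTFAM while LDHB shrinks, the carrier bars are taller in shTFAM, and the MPC1 and MPC2 bars are shorter.

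Of 16 other monocarboxylate carriers and partners only 5 passed the filter, 2 of which rose and 0 fell by edgeR, DESeq2 and limma alike. At an unadjusted edgeR p under 0.05, 0 were lower as well. The edgeR shares over all tested rows were 11.3% higher and 6.59% lower, so 0 lower of 5 is near that background. The median log2 fold change of the 5 genes was 0.20, beside -0.02 over all tested rows. SLC16A6, an MCT7 gene described as a ketone body carrier, was at 22.0, 27.6 and 13.5 CPM in shCtrl and 95.2, 86.6 and 79.0 CPM in shTFAM (log2 fold change 2.05, SE 0.251, edgeR adjusted p = 0.00398). SLC16A4, which encodes the orphan carrier MCT5, was at 0.767, 1.52 and 1.16 CPM and then 7.83, 7.23 and 7.74 CPM (log2 fold change 2.72, SE 0.282, edgeR adjusted p = 0.00279). It averaged 0.303 FPKM in shCtrl, under the filter of 0.5, and 1.94 FPKM in shTFAM, so it was tested only through its shTFAM level. With no filter 9 of the 16 were tested, and 2 were called higher. SLC16A6 and SLC16A4 rose by more than SLC16A3 on the log2 scale from lower levels, and both were called without each library in turn. NPTN, which encodes neuroplastin, a BSG relative that also partners these carriers, was not called (log2 fold change 0.20, SE 0.130, edgeR adjusted p = 0.319), and EMB, the partner of MCT2, had 0 counts in every library. The sodium-coupled lactate carriers SLC5A8 and SLC5A12 and the testis form MPC1L also had 0 counts throughout.

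In the mitochondrial pyruvate carrier, MPC1 (ENSG00000060762, chr6:166364919-166383013, minus strand) was at 23.3, 21.6 and 26.9 CPM in shCtrl and 14.8, 14.0 and 10.5 CPM in shTFAM. Every shTFAM library was below every control. The mean went from 23.9 ± 2.74 to 13.1 ± 2.31 CPM (SD, n = 3), a log2 fold change of -0.87 (SE 0.175, edgeR adjusted p = 0.0187). The call was lost without shCtrl 1 (edgeR adjusted p = 0.0535) or shTFAM 2 (0.0501).

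MPC2 (ENSG00000143158, chr1:167916675-167937072, minus strand) encodes the other subunit, without which the carrier does not form. It was at 42.3, 39.7 and 39.1 CPM in shCtrl and 33.5, 32.4 and 33.2 CPM in shTFAM. The groups did not overlap, and the shTFAM libraries were close together, but the log2 fold change of -0.29 did not pass (SE 0.0923, edgeR adjusted p = 0.0689). MPC2 did pass with DESeq2 (adjusted p = 0.0366), with limma on log2(FPKM + 1) (0.0340), and in edgeR with scaling to library totals (0.0425) or to counts outside mtDNA (0.0281). DCAF6, on the opposite strand and overlapping MPC2 by 1290 bases, held 353% as many counts as MPC2. The log2 fold change of DCAF6 was -0.01 (edgeR adjusted p = 0.951).

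Per length the 2 subunits were near equal in shCtrl, and MPC1 was the lower in shTFAM. The MPC1 to MPC2 FPKM ratio was 0.937, 0.927 and 1.17 in shCtrl and 0.753, 0.737 and 0.537 in shTFAM. The groups did not overlap, with a log2 difference of -0.59 (exact two-sided permutation p = 0.1, again the lower limit of the design, and 0.1 adjusted over the 3 ratios). Without shCtrl 3, the control with the highest ratio, the log2 difference was -0.48. The summed level of MPC1 and MPC2 was 27.0, 24.8 and 28.0 FPKM in shCtrl and 18.6, 17.5 and 15.3 FPKM in shTFAM.

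By mean FPKM the shCtrl order was LDHB at 407 ± 31.9, LDHA at 173 ± 44.4, BSG at 128 ± 8.64, SLC16A1 at 32.6 ± 5.62, SLC16A3 at 18.8 ± 1.35, MPC1 at 13.4 ± 1.62, MPC2 at 13.2 ± 0.600, SLC16A7 at 1.04 and LDHD at 1.01 (SD, n = 3). Ranges overlapped between LDHA and BSG, MPC1 and MPC2, and SLC16A7 and LDHD. In shTFAM the order began with LDHA at 389 ± 31.0 and LDHB at 282 ± 24.1, followed by BSG, and SLC16A3 at 38.3 ± 4.16 stood beside SLC16A1 at 34.4 ± 1.44 with overlapping ranges. MPC2 at 10.2 ± 0.365 was above MPC1 at 6.93 ± 1.41 (SD, n = 3) without overlap.

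Of 21 enzymes that make or use pyruvate, 19 were tested, 3 rose, 2 fell and 14 did not pass, with a median log2 fold change of -0.20. Over all tested rows 11.3% were called higher and 6.59% lower, so these counts are near the background. PDK1, a kinase that inactivates pyruvate dehydrogenase and so keeps pyruvate from oxidation, was at 53.8, 55.4 and 55.9 CPM in shCtrl and 145, 152 and 225 CPM in shTFAM (log2 fold change 1.66, SE 0.177, edgeR adjusted p = 0.00304). PKM, the pyruvate kinase that makes the substrate of lactate dehydrogenase, went from 1771 ± 323 to 3154 ± 346 CPM (SD, n = 3; log2 fold change 0.83, SE 0.163, edgeR adjusted p = 0.0171), and its call was lost without shTFAM 2 (0.0519) or shTFAM 3 (0.0538). PDK4, a second kinase of the complex, rose less (log2 fold change 0.41, SE 0.110, edgeR adjusted p = 0.0441) and was not called with scaling to library totals (0.0872). DLD, the E3 subunit of pyruvate dehydrogenase, fell from 108 ± 8.41 to 79.0 ± 6.21 CPM (log2 fold change -0.46, edgeR adjusted p = 0.0282), and ME2, the mitochondrial malic enzyme, from 42.7 ± 3.38 to 27.7 ± 2.12 CPM (SD, n = 3; log2 fold change -0.62, edgeR adjusted p = 0.0132). PDK1 and ME2 were called without each library in turn; DLD was not called without any 1 of the 6 libraries (edgeR adjusted p 0.0558 to 0.0784), and PDK4 was lost without shCtrl 1 (0.133), shCtrl 2 (0.140), shTFAM 1 (0.107), shTFAM 2 (0.0951) or shTFAM 3 (0.101).

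The cytosolic NADH shuttles, which compete with lactate dehydrogenase for NADH, had 9 tested genes of 10, of which 1 fell, 0 rose and 8 did not pass in edgeR (0 higher also at an unadjusted p under 0.05 and with DESeq2 or limma on log2(FPKM + 1)), with a median log2 fold change of -0.11. Over all tested rows 6.59% were called lower, and 1 of 9 is near that background. GOT1, the cytosolic aspartate aminotransferase, went from 148 ± 21.1 to 94.4 ± 5.86 CPM (SD, n = 3; log2 fold change -0.65, SE 0.127, edgeR adjusted p = 0.0170), and the call was lost without shCtrl 1 (0.0567), shCtrl 2 (0.0604), shTFAM 2 (0.0522) or shTFAM 3 (0.0558). Of 4 genes of the methylglyoxal path that feeds D-lactate to LDHD, all tested, 0 were called by edgeR or limma and 1, HAGH, by DESeq2 and at an unadjusted edgeR p under 0.05. Over all 14708 tested rows edgeR called 17.9%, and DESeq2 called 2171 higher and 1666 lower. The share at an unadjusted p was not counted. GLO1 had a log2 fold change of -0.24 (edgeR adjusted p = 0.192) and HAGH of 0.60 (edgeR adjusted p = 0.0542). Lactate sensing was represented by NDRG3, a protein stabilized by lactate, which was not called (log2 fold change -0.18, edgeR adjusted p = 0.520), and by the receptor gene HCAR1, which was below the filter at 0.0908 FPKM in shCtrl and 0.132 FPKM in shTFAM.

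Of 6 transcription factors known to act on these genes, 0 passed the edgeR test after adjustment, beside 17.9% of all tested rows. At an unadjusted edgeR p under 0.05, 3 were higher (HIF1A, EPAS1 and ARNT). The share of all rows at that level was not counted, so no excess can be read from this number. DESeq2 called 2 of the 6 higher and limma 0, and DESeq2 called 2171 of all 14708 tested rows higher. HIF1A, which binds the core motif printed for LDHA, was at 179, 179 and 174 CPM in shCtrl and 208, 208 and 218 CPM in shTFAM (log2 fold change 0.25, SE 0.0781, edgeR adjusted p = 0.0645), and EPAS1, its relative HIF-2 alpha, had a log2 fold change of 0.77 (SE 0.229, adjusted p = 0.0575). The groups did not overlap for either, as for 42.2% of all tested rows, and these were the 2 that DESeq2 called. HIF activity is set largely by protein stability, which was not measured here.

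**Figure D4:**
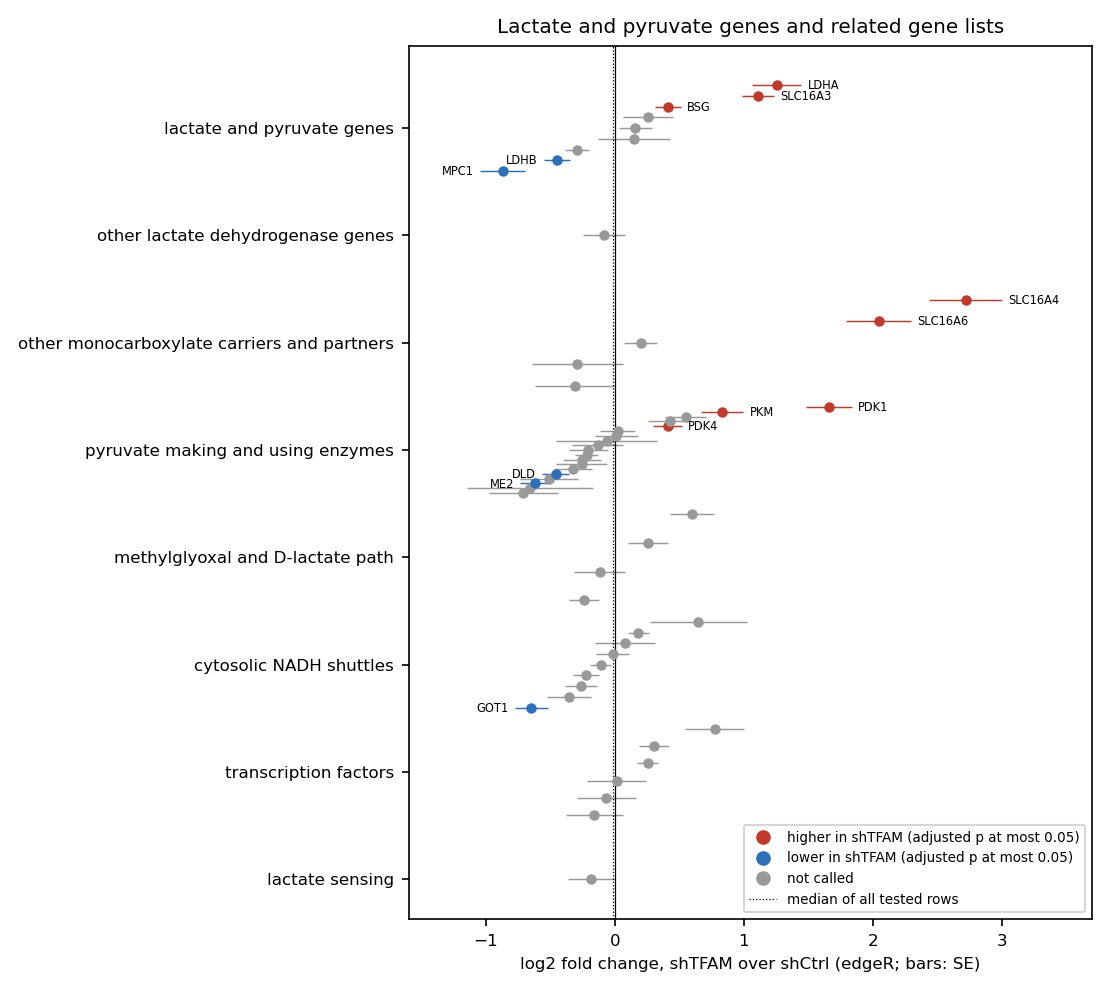
Log2 fold change (shTFAM over shCtrl, edgeR, bars ± SE, n = 3 libraries per group) of the 9 genes and of the tested genes of each related list, coloured by call and with called genes named; the dotted line is the median of all tested rows. The named carriers SLC16A4 and SLC16A6 and PDK1 lie to the right of LDHA and SLC16A3, and MPC1 is the leftmost of the named genes.

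Profiles over the 6 libraries were compared by the root mean square difference of centred log2 CPM over 6255 rows that averaged 5 FPKM or more and had an ordinary gene symbol (no clone, LINC or mtDNA names). The rows most like LDHA were ANXA2P2, a pseudogene row that can share reads with its parent (difference 0.0576), the proliferation marker MKI67 (0.125) and SERPINB5 (0.129), beside a median of 0.688. Those most like LDHB were SSU72 (0.0127), DLD (0.0203) and NDUFS8 (0.0244), beside a median of 0.307. Both sets share the libraries and the group contrast with LDHA and LDHB, and the values are descriptions over 6 libraries.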

How the data were processed

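Poly(A) RNA of 6 SNU-368 libraries was sequenced as strand-marked (dUTP) paired reads, per the labels' protocols. The submitters' processing notes name cutadapt 1.9, HISAT2 2.0.4, StringTie 1.3.4d and Bowtie 0.12.2 and the builds hg38 and mm8, without roles; the sources used here do not give the counting tool, its annotation or its strand setting. Whole-number counts and FPKM per gene are in 1 table that the authors deposited, per the file headers. Of its 60612 rows, 58394 were found by identifier in GENCODE 29 (hg38), and 99.9% of those overlapped the annotated gene on the same strand, so coordinates are given as hg38.

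Groups came from the treatment label, and replicates were numbered in accession order. Rows averaging 0.5 FPKM or more in the 6 libraries were tested on the deposited counts with edgeR 4.0.16 (R 4.3.3): TMM scaling (factors 0.951 to 1.04), trended dispersion, quasi-likelihood F test, two-sided, Benjamini-Hochberg over all 14708 rows, called at an adjusted p of at most 0.05. SE was taken as log2 fold change over the square root of F. Ratios within a library were compared with two-sided exact permutation tests. Replicate libraries differed by more than sampling noise (chi-square per degree of freedom at least 42.2). Alternatives used other filters, scalings, DESeq2 1.42.0, limma 3.58.1 on log2(FPKM + 1) and log2(FPKM + 0.1), and left-out libraries. The script was tested on simulated counts. The genes and lists were chosen with earlier results of these data known. All 9 genes are named; of each list up to 3 called genes of smallest p per direction are named, or the 2 of highest mean FPKM. Figures were drawn with matplotlib 3.10.9.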

Additional observations from a re-analysis of the deposited data

How the results depend on the processing

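LDHA, SLC16A3, SLC16A1 and SLC16A7 kept their direction and side of the threshold in every alternative run for them (18 each, 17 for SLC16A7). The 3 ratios kept their direction in every alternative run for them. Their exact permutation p was 0.1 throughout, the lower limit, so they could not have passed 0.05 in any setting. The number of the 9 genes called higher stayed between 2 and 3. The number called lower was 2, was 3 with MPC2 added under 7 alternatives (a filter of 5 FPKM, library totals, counts outside mtDNA, DESeq2 and the 3 limma settings), was 0 at an adjusted p of 0.01, and ranged from 0 to 2 with 1 library left out, at 0 without shCtrl 1 or shTFAM 2; fewer libraries also gave fewer calls over all rows. LDHD, never called, turned from 0.15 to -0.054 without shCtrl 3 and to -0.15 without shCtrl 3 and shTFAM 3, and reached 0.37 with another library left out. With a filter of 5 FPKM, LDHD and SLC16A7 were not tested. The balance of all calls moved with scaling alone: 1661 higher and 969 lower with TMM became 1353 and 1266 with library totals, and 1198 and 1771 with counts outside mtDNA. With limma on log2 FPKM, where test, unit and scaling all differ, it was 1278 and 1337, and 1466 and 1269 after quantile normalization. With counts outside mtDNA the median of all tested rows moved from -0.02 to -0.15. Each of the 9 genes kept its direction, LDHD and SLC16A1 with log2 fold changes of only 0.0076 and 0.030. No paired analysis was possible because the titles give the groups no shared replicate numbers. With 3 libraries a group the exact tests cannot go below 0.1, and at 1 to 4 CPM LDHD differences were not resolved at this spread.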

Other observations

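Rows within 20 kb of the 9 genes were read after the values were seen. HCN2, a channel gene that starts 6387 bases beyond BSG on the same strand, was at 15.6, 14.2 and 14.4 CPM in shCtrl and 28.3, 26.3 and 28.2 CPM in shTFAM, a log2 fold change of 0.91 (edgeR adjusted p = 0.00424), beside 0.41 for BSG. HCN2 held 3.27% as many counts as BSG. On the opposite strand of BSG, overlapping its start by 952 bases, the row ENSG00000267751 had a log2 fold change of -0.10 (edgeR adjusted p = 0.795).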
